A study of Mus musculus with 106 samples.

Results

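In WT mouse liver, 3800 of the 21245 Foxa2 ChIP-seq peaks listed after the LXR agonist GW3965 were also listed after each of the other ligands and with neither vehicle. A peak of the GW3965 list was taken as such a ligand-only site when it overlapped by 1 base or more a Foxa2 peak with the LXR agonist T0901317 (T09) and one with the FXR agonist GW4064. It also had to overlap no peak in the vehicle list of the LXR agonist experiment or in the vehicle list of the GW4064 experiment. The T09 and GW4064 peaks did not have to overlap each other. The sites were thus chosen by presence in and absence from the 5 Foxa2 lists, and their presence, order and width there are given as a description.

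The series covers 106 samples of WT and Foxa2 mutant mouse liver in 45 groups, studied by ChIP-seq, ATAC-seq and RNA-seq. The 5 Foxa2 groups were livers of WT mice aged 8 to 12 weeks, taken 4 h after GW3965, T09, GW4064 or vehicle, with 1 sample and 1 peak list per group. For vehicle, GW3965 and T09 the labels state that 3 replicates are held in 1 raw file. The ATAC-seq and FXR groups had the same ages and time, in WT and Foxa2-KO liver, with 2 samples per FXR group and 2 (LXR agonists) or 3 (GW4064) per ATAC arm. The LXR and PPAR groups were C57BL/6 mice of 3 months, WT or Foxa2-KO, with 2 samples per PPAR group, and for LXR 1 per WT group and 3 per mutant group. The LXR labels name their agonists as GW and T09. The mutant is given for the PPAR samples as Foxa2loxP/loxP;Alfp.Cre, a Cre transgene under regulatory elements of the albumin and alpha-fetoprotein genes, which is active in hepatocytes and biliary cells. Foxa2 itself was mapped in WT liver only. The sample labels give the route as oral gavage where the series text speaks of injection, and strain is not given for the Foxa2, FXR and ATAC samples.

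Foxa2 (HNF3-beta) is a forkhead transcription factor that can bind its DNA sequence on nucleosomes and is regarded as a pioneer factor for liver enhancers. FXR is the nuclear receptor for bile acids, and LXR is the receptor for oxysterols that switches on sterol export and, through SREBP-1c, fatty acid synthesis. Both bind DNA as partners of RXR. Forkhead factors and nuclear receptors often occupy the same liver enhancers.

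Some ligand-only sites lay on promoters, and their upstream sequence could be read from the RefSeq promoter table (GRCm38.p6, the mm10 assembly). The 6 promoters below belong to genes of the lists described later and lie under a ligand-only site. They are the 5 promoters, of 16 list genes with a window under a ligand-only site, in which the stretch shown held a forkhead core, and that of Abcb11 for its FXR peak. The genes are the enzyme of long-chain fatty acid elongation (Elovl6), a phosphatidate phosphatase (Lpin2), the pregnane receptor PXR (Nr1i2), an apolipoprotein of triglyceride clearance (Apoa5), albumin (Alb) and the bile salt export pump (Abcb11). Capitals mark the forkhead cores TGTTTAC and TGTTTGC on either strand, so that a core on the opposite strand reads GTAAACA or GCAAACA. Each line runs 5′ to 3′ on the gene's strand, ends 1 base before the annotated start and keeps to bases inside the GW3965 peak. Not all of these bases lie inside the T09 and GW4064 peaks of the site.
Elovl6, chr3:129532136-129532385, plus strand: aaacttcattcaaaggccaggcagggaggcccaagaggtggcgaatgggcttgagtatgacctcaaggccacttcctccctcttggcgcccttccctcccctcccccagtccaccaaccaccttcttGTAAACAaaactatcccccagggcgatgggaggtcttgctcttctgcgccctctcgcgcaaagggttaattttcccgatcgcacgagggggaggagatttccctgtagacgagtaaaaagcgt
Lpin2, chr17:71204404-71204653, plus strand: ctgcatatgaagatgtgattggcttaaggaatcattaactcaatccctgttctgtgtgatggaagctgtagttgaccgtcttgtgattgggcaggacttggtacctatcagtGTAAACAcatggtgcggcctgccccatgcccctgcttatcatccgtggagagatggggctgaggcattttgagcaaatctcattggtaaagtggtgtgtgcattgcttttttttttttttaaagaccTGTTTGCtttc
Nr1i2, chr16:38294825-38295074, minus strand: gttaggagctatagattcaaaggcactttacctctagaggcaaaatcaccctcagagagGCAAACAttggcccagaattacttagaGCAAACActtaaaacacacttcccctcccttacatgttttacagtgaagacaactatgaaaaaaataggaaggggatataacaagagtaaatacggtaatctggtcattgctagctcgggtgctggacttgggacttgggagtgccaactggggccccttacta
Apoa5, chr9:46268358-46268607, plus strand: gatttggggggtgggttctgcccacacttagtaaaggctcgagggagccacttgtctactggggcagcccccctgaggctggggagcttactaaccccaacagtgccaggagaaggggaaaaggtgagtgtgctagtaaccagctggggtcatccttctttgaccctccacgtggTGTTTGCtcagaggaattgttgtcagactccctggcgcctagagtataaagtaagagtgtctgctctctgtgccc
Alb, chr5:90460727-90460869, plus strand: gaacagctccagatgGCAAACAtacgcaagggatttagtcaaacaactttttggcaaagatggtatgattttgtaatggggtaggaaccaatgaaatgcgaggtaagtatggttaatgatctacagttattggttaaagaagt
Abcb11, chr2:69342617-69342866, minus strand: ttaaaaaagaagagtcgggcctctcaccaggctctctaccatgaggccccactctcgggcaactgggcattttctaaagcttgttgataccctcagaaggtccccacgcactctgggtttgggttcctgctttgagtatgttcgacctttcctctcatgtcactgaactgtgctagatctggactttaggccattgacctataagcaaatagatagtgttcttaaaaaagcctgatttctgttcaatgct

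Counted from the start site, with -1 the last base shown, the Elovl6 core began at -123, the Lpin2 cores at -138 and -11, the Nr1i2 cores at -191 and -164, the Apoa5 core at -75 and the Alb core at -128. Those of Elovl6, Nr1i2 and Alb, and the farther one of Lpin2, lay on the strand opposite to the gene. The Abcb11 stretch held none of these letters, which says nothing of other forms of the sequence. It lay wholly outside the T09 (69342955-69343150) and GW4064 (69342976-69343156) peaks of that site. Both Nr1i2 cores lay outside the GW4064 peak there (38294818-38294976). The nearer Lpin2 core lay outside the T09 and GW4064 peaks, which ended at 71204611 and 71204601.

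Across the promoter table, 8.48% of all 32851 windows (250 bases before to 50 after a start) held one of the 2 cores on either strand. Ligand-only sites overlapped 220 windows of 203 genes, 150 of them protein-coding, and 68 windows (30.9%, Wilson 95% interval 25.2 to 37.3) held a core. TGTTTAC was found in 39 of these windows and TGTTTGC in 32. The share was 40.6% of windows under Foxa2 sites listed in all 5 Foxa2 lists and 12.4% under peaks found in the GW3965 list and no other. Over whole lists, windows under ligand-only sites thus lay between these classes, nearer to the sites present with vehicle. Within part of the GW3965 list (bins 3 to 5, given below) the share was 30.5%, against 23.8% for peaks listed with a vehicle. A core was counted anywhere in a window that the GW3965 peak overlapped. In 57 windows under ligand-only sites a core lay upstream of the start and inside the site. Windows of 1 gene can overlap and share letters, and intervals here and below cover counting error only. The perfect IR1 element (an inverted repeat with a spacer of 1 base, read by FXR with RXR) and the perfect DR4 element (a direct repeat with a spacer of 4, read by LXR with RXR), both on either strand, were found in 0 of the 220 windows and in 3 and 5 of all windows, so at this strictness they are too rare for a comparison. The plot of promoter windows with a core shows these shares.

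**Figure D1:**
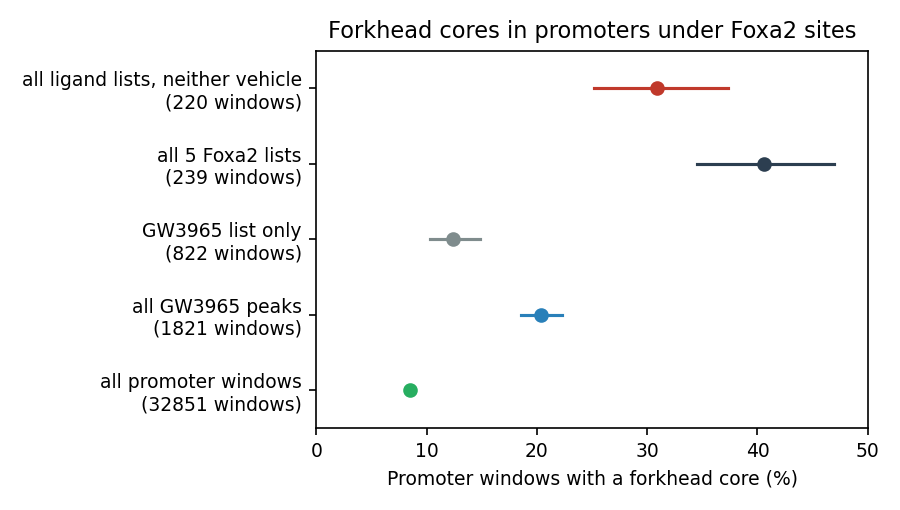
Percent of 300-base promoter windows that hold the forkhead core TGTTTAC or TGTTTGC on either strand (x axis), by class of Foxa2 site overlapping the window (y axis); points are shares and bars Wilson 95% intervals, drawn for the Foxa2 classes. Windows under ligand-only sites stood at 30.9%, between 12.4% for GW3965-only peaks and 40.6% for sites in all 5 lists, against 8.48% of all windows.

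Ligand-only sites mostly did not stand first in their lists. The Foxa2 lists hold positions without a score, and the order of entries served as rank. The sources used here do not state that entries follow significance, so early, first or best placed mean list order alone, not strength of binding. In 10 equal bins of the GW3965 list from first to last, ligand-only sites made up 4.10%, 19.2%, 34.0%, 33.6%, 28.9%, 21.3%, 14.8%, 10.96%, 7.58% and 4.42% of peaks. They peaked in bins 3 and 4. Sites of all 5 lists came before them, with 84.4% of bin 1, and peaks of the GW3965 list only came after, with 76.9% of bin 10. Their median entry was 8421.5 of 21245 with GW3965, 8209 of 25318 with T09 and 7921 of 22666 with GW4064. The vehicle lists ended sooner, at 4348 entries in the LXR agonist experiment and 7306 in the GW4064 experiment. Only 159 ligand-only sites (4.18%) stood within the first 4348 entries with both LXR agonists and the first 7306 with GW4064. For all ligand-only sites, absence from a vehicle list and the shorter length of that list cannot be told apart. A place within that length does not change this, since the order of entries is not known to follow significance. Read depth is unknown, since the lists hold no counts.

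**Figure D2:**
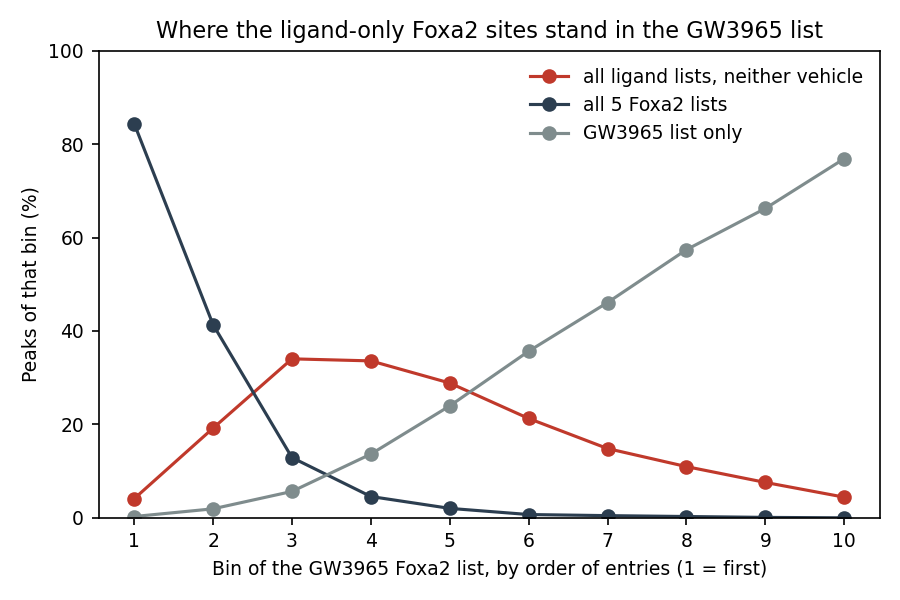
Percent of peaks in each of 10 bins of the GW3965 Foxa2 list, by order of entries (x axis, 1 is the first), that were ligand-only sites, sites of all 5 Foxa2 lists or peaks of the GW3965 list alone (y axis). Ligand-only sites rise to 34.0% in bin 3 and fall to 4.42% in bin 10.

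Among the 9182 GW3965 peaks present with all 3 ligands, 41.4% were ligand-only, 24.6% also had a peak in 1 vehicle list and 34.0% in both. The ligand-only sites had a median width of 271 bases (quartiles 230 and 370, range 133 to 3053), against 349 for sites in all 5 lists and 245 for peaks of the GW3965 list only. Their partners were 258 bases wide at the median with T09, against 293 for all T09 peaks, and 160 with GW4064, against 124 for all GW4064 peaks. The calls lay close together: peak centres were within 100 bases of the GW3965 centre for 83.4% of sites with T09 and 86.9% with GW4064. Overlaps of 10 bases or less with either partner chose 44 sites. On the other side of the rule, no ligand-only site had a vehicle peak within 100 bases and 75 had one within 500. Of the 5382 peaks with all ligands that failed through a vehicle peak, 6 overlapped it by 50 bases or less.

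The nearest vehicle Foxa2 peak lay 35.02 kb away at the median, and 1034 ligand-only sites (27.2%, interval 25.8 to 28.6) had one within 10 kb. For peaks of the GW3965 list only, that share was 22.8%. The distance between neighbouring ligand-only sites had a median of 238 kb, and 7.94% of these gaps were 10 kb or less. Runs of 3 or more sites at most 20 kb apart numbered 60 and held 190 sites. The longest run had 5 sites at Slc38a4, which encodes a neutral amino acid transporter of hepatocytes. The share of GW3965 peaks that were ligand-only ranged from 15.8% on chromosome 2 to 23.3% on chromosome 17, among chromosomes 1 to 19 and X.

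Site centres fell inside a protein-coding gene for 55.8% of ligand-only sites (interval 54.2 to 57.3), for 55.2% of all GW3965 peaks and for 53.0% of sites in all 5 lists. Few sites lay at starts: 7.14% of ligand-only sites lay within 1 kb of a start in the promoter table, against 6.56% of sites in all 5 lists, 12.98% of GW3965-only peaks and 9.43% of all GW3965 peaks. These start shares leave out chromosome 18 and miss genes absent from the table, which covers 17491 of 21896 protein-coding genes.

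The first 10 ligand-only sites, by mean relative place in the 3 ligand lists, are given next with the nearest gene, which was often beyond 10 kb. The first lay at 6:120539557-120540505, 8667 bases from Hdhd5, at entry 641 with GW3965, 667 with T09 and 2028 with GW4064. The second lay 44237 bases from Akr1d1, the 5-beta-reductase of bile acid synthesis, at entries 2539, 668 and 678. Next came a site near Slc38a2 (an amino acid transporter, entries 448, 2122 and 2054) and one in Mansc1 (1644, 1074 and 1789). The fifth lay inside Abca1, the cholesterol exporter that loads HDL, at 4:53080347-53080686 and at entries 2161, 1339 and 2122. All of these stood early in each ligand list. The nearest vehicle peak to the Abca1 site was 58917 bases away in the LXR agonist experiment but 1927 bases away in the GW4064 experiment. The others were nearest to Grid1, Slc45a3, Nmbr, Bhmt2 and Cdyl, of which those at Grid1, Nmbr and Cdyl were over 100 kb from the gene. The Cdyl site lay in all 3 WT lists of gained accessibility, and those near Hdhd5, Abca1 and Nmbr in the GW3965 list.

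Near genes, 2561 of 21896 protein-coding genes (11.7%) had a ligand-only site inside them or at most 10 kb away. Of these, 1222 also had a vehicle Foxa2 peak there and 1339 had none, which is 6.12% of all genes. A vehicle peak was found at 19.8% of genes. Genes with a ligand-only site were long, with a median of 39.9 kb against 17.1 kb for all, and 564 had 2 or more sites. Thrb, the thyroid hormone receptor beta of liver, had the most with 7. Nedd4l, Osbpl1a, Pard3, Ptprg, Sik3 and Zmiz1 had 6 each, and Arhgap26, B3galt1 and Foxn3 had 5 each. All 10 of these genes also carried vehicle peaks. Shares of a gene list are to be read beside the 11.7% and the length of its genes, and genes of 1 cluster can share a site.

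The regulators of lipid synthesis had ligand-only sites in 5 of 9 cases: Srebf1, Srebf2, Scap, Insig2 and Mbtps1. Srebf1, which encodes SREBP-1, the main activator of fatty acid synthesis and itself an LXR target, held 1 site inside the gene at 11:60219746-60219964. It was entry 11090 with GW3965, 4108 with T09 and 18021 with GW4064, so it came earlier with T09 than with the others. Each ligand list held 1 Foxa2 peak at Srebf1 and each vehicle list 0, with the nearest vehicle peak 20590 bases away. The Srebf1 site lay in accessibility gained with GW3965. Srebf2, which encodes the activator of cholesterol synthesis, had 2 sites, the better placed at 15:82183325-82183900 (entries 5465, 5555 and 5167) on an FXR peak of WT with GW4064. That site was 931 bases from a peak in the GW4064 vehicle list. Insig2, whose product holds SREBPs in the endoplasmic reticulum, had 2 sites, Mbtps1 (the first protease that cuts SREBP) and Scap (its escort) 1 each. Mbtps1 was the only other regulator of the 5 without a vehicle peak.

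Genes of fatty acid synthesis and storage had ligand-only sites in 11 of 21 cases, 5 of them without a vehicle peak. Elovl6 had 3 sites and 0 vehicle peaks. The site on its promoter (sequence above), at 3:129531963-129532454, was entry 3047 with GW3965, 3936 with T09 and 4050 with GW4064. Its other sites lay further into the gene, at entries 3841, 3236 and 4013 and at 10200, 3555 and 5351. The Elovl6 promoter site was in accessibility gained with GW3965. Thrsp, which encodes the lipogenic protein Spot 14, had a site at entries 1129, 2896 and 14972, early with both LXR agonists and far later with GW4064. Lpin2 (3813, 5682 and 5034), Agpat2, an acyltransferase of triglyceride synthesis (3510, 6652 and 13079), and the lipid droplet gene Plin5 (5281, 23733 and 10639) were the others without a vehicle peak. Elovl5 had 3 sites, and Lpin1 and Gpam 2 each, beside vehicle peaks. The site 5747 bases from Scd1, the stearoyl-CoA desaturase, lay on LXR peaks of WT liver with GW, with T09 and with vehicle.

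LXR targets and sterol exporters had ligand-only sites at 4 of 14 genes, Abca1 (3 sites), Scarb1, Apoe and Lpcat3 (2 each), and all 4 also had a vehicle peak in each vehicle list. Cholesterol synthesis and LDL uptake had them at 7 of 20 genes, 4 of them without a vehicle peak. Fdft1, the first enzyme committed to sterols, had 2 sites, and Hmgcs1, Fdps, Sc5d and Cyp51 had 1 each. Hmgcs1, Sc5d and Cyp51 had no vehicle peak. The Hmgcs1 site stood at entries 6188, 7137 and 8171, and that of Cyp51 stood far later, at 14729, 19690 and 19009.

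Bile acid genes had ligand-only sites in 13 of 25 cases, 11 of them beside a vehicle peak. Cyp7a1, the rate-limiting enzyme of bile acid synthesis, had 1 site 3047 bases outside the gene at 4:6278552-6278808. It was entry 5155 with GW3965, 7775 with T09 and 6713 with GW4064, and neither vehicle list held a peak at Cyp7a1, the nearest being 32178 bases away. The Cyp7a1 site lay in accessibility gained with GW3965 and on no receptor peak. Fgfr4, the liver receptor for FGF15, was the other gene without a vehicle peak (entries 11066, 19005 and 8612). Cyp7b1 had 3 sites, and Abcc3, Klb, Acox2 and Baat 2 each. At Cyp8b1, the sterol 12-alpha-hydroxylase, the site was 200 bases from a peak in 1 vehicle list and 314 bases from the other, among the closest to failing the rule. The promoter site of Abcb11 (5069, 13349 and 9105) lay on an FXR peak of WT with GW4064 and in accessibility gained with GW4064. Of 12 other FXR targets, Pemt (2 sites), Apoa5, Fetub and Slc25a25 had one.

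Nuclear receptor genes had ligand-only sites in 13 of 26 cases, 11 beside a vehicle peak. Thrb had 7 sites, Nr5a2 (LRH-1, an activator of bile acid synthesis) and Rora 4 each, and Nr1h4 (FXR itself), Nr1i2, Rarb and Nr3c1 (the glucocorticoid receptor) 2 each. Ppara, Esrra, Nr1i3 (CAR), Nr1d1 (REV-ERB-alpha), Hnf4a and Pparg had 1 each. The best placed at Nr1h4 stood at entries 4686, 4821 and 4473, alike in the 3 lists. That at Nr1i2 stood at 4945, 4598 and 6382, latest with GW4064. The Ppara site was entry 780 with GW3965, 5701 with T09 and 2712 with GW4064, and lay 430 bases from a GW4064 vehicle peak. Esrra (9068, 6412 and 3411) and Nr1d1 (8621, 12075 and 9196) had no vehicle peak. The plot of the regulator genes gives the place of each best site.

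**Figure D3:**
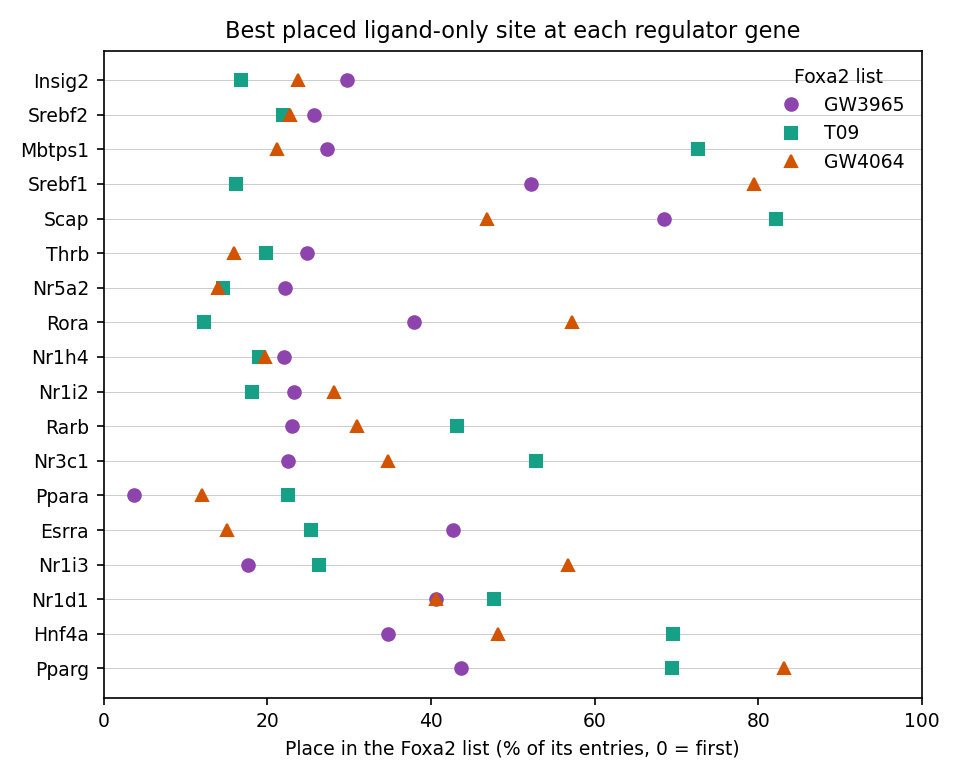
Place of the best placed ligand-only site at each SREBP or nuclear receptor gene that had one, as percent of the entries of the GW3965, T09 and GW4064 Foxa2 lists (x axis, 0 is the first entry; 1 symbol per list). Srebf2 and Nr1h4 each stand at close places in all 3 lists, while Srebf1 ranges from entry 4108 with T09 to 18021 with GW4064.

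Transcription factors that define hepatocytes had ligand-only sites in 9 of 19 cases, and the forkhead genes Foxa1 and Foxa3 and the factor Onecut1 (HNF6) had them without a vehicle peak. Foxa3 had 2 sites, the better placed at entries 3751, 5601 and 4958, and Foxa1 had 1 at 6548, 6493 and 7303. Both lay in accessibility gained with GW3965. Nr5a2 had 4 sites, Prox1 and Foxo3 3 each, and Klf15, an activator of amino acid catabolism and gluconeogenesis, 2. The better Klf15 site stood at 1836, 3225 and 3437, among the 159 early sites.

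Fatty acid oxidation had ligand-only sites at 12 of 27 genes and, at 8, the largest number without a vehicle peak of any list, though it is also the longest list. Of all protein-coding genes, 6.12% had a site and no vehicle peak. In other lists it was 5 of 21 genes of fatty acid synthesis and storage and 3 of 12 sinusoidal endothelial markers. Among these 8 were Bdh1 (2 sites), Pdk4, Fabp1, Cyp4a14, Hadh and Decr1. Pdk4, the kinase that turns off pyruvate dehydrogenase on fasting, had a site 262 bases from the gene at 6:5496332-5496750, at entries 3467, 4528 and 3812. The better site of Bdh1, which interconverts the ketone bodies, stood later, at 10449, 9851 and 17674. Ppargc1a, the coactivator PGC-1-alpha, had 3 sites beside peaks in the GW4064 vehicle list.

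Gluconeogenesis and glucose handling had ligand-only sites at 10 of 19 genes, 4 of them without a vehicle peak, among them Irs2, Fbp1 and Pygl. Insr, the insulin receptor, had 4 sites and Got1 3. Fbp1, fructose bisphosphatase, had a site 956 bases from the gene at entries 2442, 2491 and 6046, early in all 3 lists. Pygl, the glycogen phosphorylase of liver, had one inside the gene at 4637, 5114 and 4313. Irs2 and Tat (tyrosine aminotransferase) had 2 sites each. Clock genes had ligand-only sites in 4 of 19 cases, Rora, Hlf, Per3 and Nr1d1, and the Per3 site was early, at 1974, 2635 and 3872.

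Secreted liver proteins had ligand-only sites mostly beside vehicle peaks. The clotting and fibrinogen list had them at 8 of 21 genes, where 19 of 21 had a vehicle peak. F9 (factor IX) was the 1 of the 8 with none, with a site at X:60014423-60015007 (entries 1523, 3776 and 3472). Plg, Cpb2 and F2 had 1 site each. Fga and Fgb shared a site 2678 bases wide that was entry 17 with GW3965, 1448 with GW4064 and only 19900 with T09. The partner peaks of that Fga site were 217 and 375 bases wide. Acute phase genes had ligand-only sites in 8 of 22 cases, with Cp (ceruloplasmin, 3 sites), Serpina3n, Orm1 and Stat3 first in order. Apolipoprotein genes had them in 11 of 20 cases, with Abca1, Lipc (hepatic lipase, 3 sites), Scarb1 and Apoc1 first in order. Apoa1, Apoc3 and Apoa4 shared 1 site at entries 7006, 3161 and 14379 whose peak with GW4064 was 2 bases wide.

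Markers of cell types served as a check of the tissue. Of 21 hepatocyte markers, 17 had a vehicle Foxa2 peak and 6 a ligand-only site (Tat and Alb 2 each; Ttr, Apoa1, Hpd and Apob 1 each). The Alb promoter site stood at entry 10665 with GW3965, 3532 with T09 and 8138 with GW4064, beside 2 peaks in each vehicle list. Stellate cell markers had no ligand-only site and no vehicle peak at any of 12 genes. Kupffer cell markers had a ligand-only site at 1 of 12, Mpeg1 (a macrophage pore protein; 3916, 2644 and 6601), and no vehicle peak. Sinusoidal endothelial markers had one at 3 of 12, Lyve1, Pecam1 and Tie1, none with a vehicle peak at the gene, and 5 of 12 had a vehicle peak. The Tie1 site stood at 3455, 1726 and 7833, earliest with T09. Cholangiocyte markers had one at 1 of 10, Sctr, the secretin receptor. These lists come from whole liver, so the cells that carry a peak, and whether their number changed, were not tested.

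**Figure D4:**
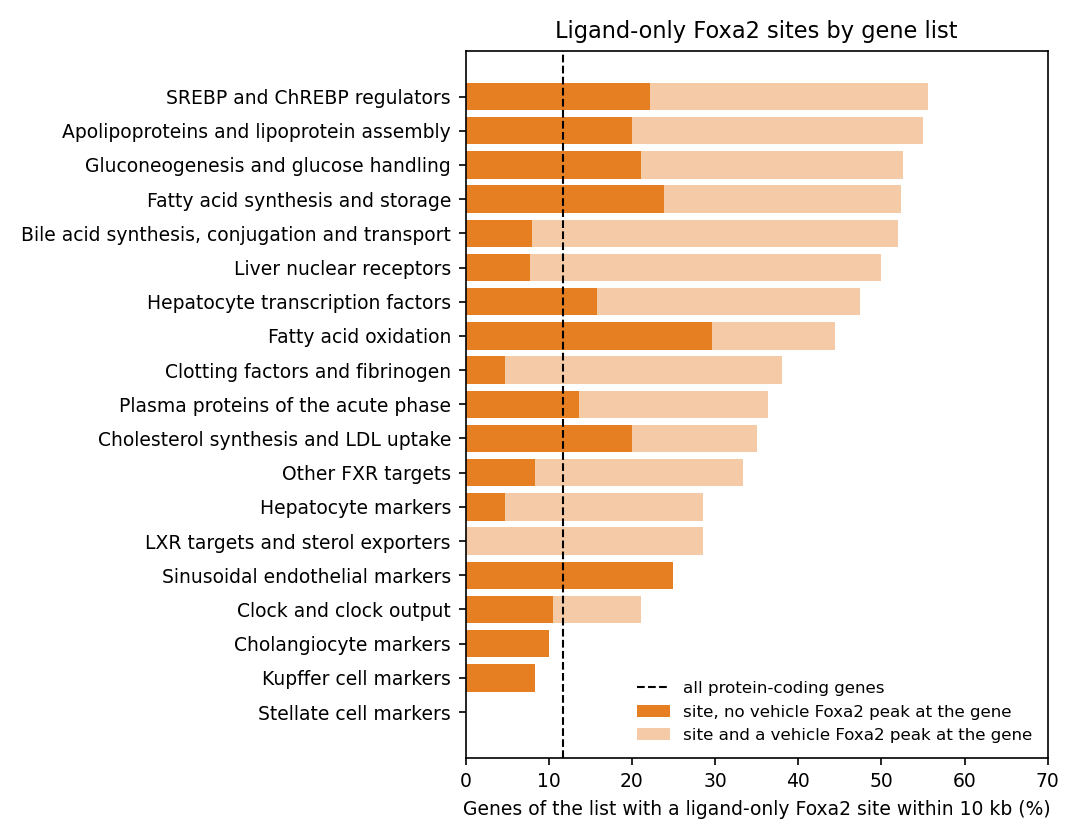
Percent of the genes of each list with a ligand-only Foxa2 site in the gene or within 10 kb (bars, from 0), split by whether the gene also had a vehicle Foxa2 peak; the dashed line is the 11.7% of all protein-coding genes. Fatty acid oxidation has the longest part without a vehicle peak, 8 of 27 genes, and LXR targets have none. The dashed line is for whole bars. For the part without a vehicle peak the share over all protein-coding genes is 6.12%, not drawn.

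Accessibility gained with GW3965 lay at about as large a share of ligand-only sites as of all Foxa2 sites. Accessibility lists hold regions called with ligand over vehicle, so they show gain and not the level. Regions gained with GW3965 in WT liver overlapped 925 ligand-only sites (24.3%, interval 23.0 to 25.7), against 25% of all GW3965 Foxa2 peaks, 27.6% of sites in all 5 lists and 23.6% of GW3965-only peaks. The value was near the background. For T09 it was 219 sites (5.76%), against 6.05% of all GW3965 peaks, and for GW4064 in WT it was 314 (8.26%), against 9.11%. These lists cover 20.2, 14.7 and 20.8 Mb, so those of GW3965 and GW4064 were of like covered length. Of the ligand-only sites, 2519 lay in none of the 3 lists, 1111 in 1, 163 in 2 and 7 in all 3. As shares these were 66.3%, 29.2%, 4.29% and 0.184%, near the 65.1%, 29.9%, 4.72% and 0.268% of all GW3965 peaks. The authors' fold of the region at a site had a median of 1.42 with GW3965 and 1.39 with T09.

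In Foxa2-KO liver, regions gained with GW4064 overlapped 117 ligand-only sites (3.08%), against 3.24% of all GW3965 peaks. Sites gained with GW4064 in both genotypes numbered 20 (0.526%), in WT only 294 (7.74%) and in the mutant only 97 (2.55%), near the 0.617%, 8.49% and 2.62% of all GW3965 peaks. The mutant list had more regions than that of WT (82561 against 60528) and about the same covered length (19.4 against 20.8 Mb). The other classes showed the same order: of sites in all 5 lists, 9.55% were gained in WT and 2.34% in the mutant, and of GW3965-only peaks 7.93% and 3.79%. Differences between genotypes have no replicate check in these lists.

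The receptors the ligands act on had few peaks at these sites. FXR peaks of WT with GW4064 overlapped 70 ligand-only sites (1.84%, interval 1.46 to 2.32), against 2.59% of all GW3965 peaks, 5.48% of sites in all 5 lists and 1.97% of GW3965-only peaks. With the vehicle of that experiment the number was 30 (0.789%), against 1.15% of all GW3965 peaks. FXR was listed at 23 sites with both (0.605%), at 47 with GW4064 only (1.24%) and at 7 with vehicle only (0.184%), where all GW3965 peaks gave 0.988%, 1.61% and 0.165%. The FXR lists themselves held 22705 and 7883 peaks, so a larger count with GW4064 goes with a longer list. In Foxa2-KO liver the counts were 2 with GW4064 (0.0526%), against 0.184% of all GW3965 peaks, and 2 with vehicle, against 0.0988%. The mutant FXR lists were short, at 3901 and 4284 peaks.

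LXR peaks of WT liver lay on 10 ligand-only sites with GW (background 0.475%), 5 with T09 (0.132% against 0.348%) and 6 with vehicle (background 0.442%), in all 13 sites (0.342%, against 0.744% of all GW3965 peaks). PPAR peaks of WT lay on 2 (background 0.353%). Those 2 PPAR sites were also among the 5 with LXR and T09, and both lay in regions listed for all 4 antibodies; without such regions the T09 share was 0.0790%. Any receptor of WT was found at 89 sites (2.34%, interval 1.91 to 2.87), against 3.3% of all GW3965 peaks and 6.60% of sites in all 5 lists. In Foxa2-KO it was 20 sites (0.526%), against 0.763%. The mutant LXR lists are labelled with a looser false discovery rate than those of WT and pool more samples, so the genotypes are not at like threshold. Taken whole, a smaller share of ligand-only sites than of Foxa2 sites of all 5 lists lay on receptor peaks. For the early ones among them the share was 6.92% (11 of 159). Its interval, 3.91 to 12.0, is too wide to set it above or below the 6.60%. Sites of all 5 lists were wider, with a median of 349 bases against 271, and what width adds to overlap was not tested. Regions listed for all 4 antibodies were not taken out of the other classes. Sites of all 5 lists were up to 15847 bases wide, and 22 of them lay on the WT PPAR list with GW3965, which holds only 110 peaks. What such regions add to the LXR and PPAR shares of that class was not tested. Receptor peaks were narrow, with a median of 58 bases for FXR with GW4064, 39 for LXR with GW and 38 for LXR with T09.

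**Figure D5:**
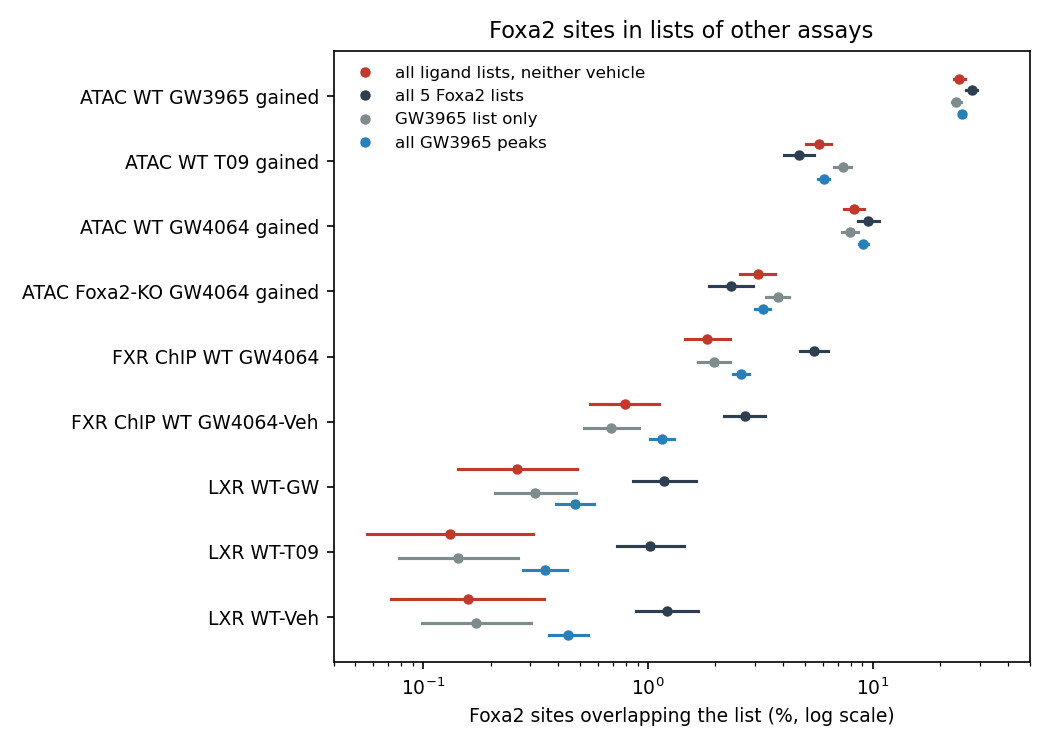
Percent of Foxa2 sites that overlap, by 1 base or more, each list of gained accessibility, FXR or LXR peaks (x axis, log scale), for ligand-only sites and 3 other classes; bars are Wilson 95% intervals, for counting of sites only. Accessibility shares lie close together, 24.3% against 25% with GW3965, while FXR and LXR shares of sites in all 5 lists lie above the rest.

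Place in the list moves with these shares, and a comparison within bins 3 to 5 of the GW3965 list narrows it. There, 2050 ligand-only sites stood beside 1859 peaks also listed with a vehicle and 919 found in the GW3965 list only. Accessibility gained with GW3965 held 24.9% (interval 23.1 to 26.8), 24.2% and 31.7% of them, and that gained with T09 held 5.37%, 3.98% and 11.3%. FXR peaks with GW4064 lay on 1.61%, 2.26% and 3.48%, and LXR peaks with T09 on 0.0976% (2 sites), 0.807% (15) and 0.109% (1). Among promoter windows, 40 of 131 (30.5%, interval 23.3 to 38.9) held a forkhead core under ligand-only sites, 23.8% under peaks listed with a vehicle and 14.6% under GW3965-only peaks. Within these bins, GW3965-only peaks had the highest accessibility and FXR shares and the lowest share of cores. Place was not matched further. GW3965-only peaks made up 5.65%, 13.6% and 24.0% of bins 3, 4 and 5, and ligand-only sites 34.0%, 33.6% and 28.9%. In accessibility, FXR and cores the intervals of ligand-only sites and of peaks listed with a vehicle overlap in these 4 measures, which does not show that they are alike. Intervals of peaks listed with a vehicle and of GW3965-only peaks overlap too for FXR (1.68 to 3.04 and 2.48 to 4.87). The same holds for cores (17.1 to 32.1 and 9.03 to 22.6). For LXR peaks with T09 the interval of ligand-only sites (0.0268 to 0.355) lay below that of peaks listed with a vehicle (0.490 to 1.33). That rests on 2 sites and 15, and how many of the 15 lie in regions listed for all 4 antibodies was not tested.

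Among the 159 early sites, 30.8% lay in accessibility gained with GW3965, 8.18% in that gained with T09 and 11.3% in that gained with GW4064 in WT. FXR peaks of WT with GW4064 lay on 8 (5.03%) and any receptor of WT on 11 (6.92%, interval 3.91 to 12.0), where all ligand-only sites gave 2.34% and sites of all 5 lists 6.60%. With so few sites these intervals are wide. The early sites included those described above at Elovl6, Abca1, Klf15, Per3, Fbp1, F9, Plg and Mpeg1. They also included a site at 2:147905095-147905424 whose nearest gene, 137618 bases away, is Foxa2 itself (entries 3529, 3378 and 6623), in accessibility gained with GW3965. That Foxa2 site was chosen after its values were seen.

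Receptor peaks lay at ligand-only sites of a few genes of metabolism and of plasma proteins, named here after their values were seen. The site in Hal, histidine ammonia-lyase, lay 99 bases from the start at 10:93488498-93489238 and stood at entries 1407, 3102 and 3747, on an FXR peak of WT with GW4064. That at C3, the central complement protein, lay 53 bases from the start at 17:57227519-57228648 (entries 2745, 3612 and 3603), on FXR peaks of WT with GW4064 and with vehicle and in accessibility gained with T09 in WT and with GW4064 in Foxa2-KO. Aass, which starts lysine breakdown, had one 317 bases from the gene (1531, 4246 and 4407), on FXR peaks with GW4064 and with vehicle. All stood early in the GW3965 list. At Hal the T09 peak (10:93488534-93488816) and the GW4064 peak (10:93489046-93489218) of the site did not overlap each other. Agpat2 and Foxo3 had FXR peaks with GW4064 and with vehicle, Orm1 and Srebf2 with GW4064 only, and Scarb1 with vehicle only. The Scd1 site was the one among genes of the lists, by its best placed site, with an LXR peak in WT, and it had one with vehicle too. A later placed site inside Insr, at 8:3279427-3279674, also lay on an LXR peak of WT, with vehicle.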

How the data were processed

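Peaks of ChIP-seq were called against input, and those of ATAC-seq with ligand over vehicle, by PeakSeq, per the labels; BWA and mm10 are named in the submitters' processing notes, and versions are not given in the sources used here. The 5 Foxa2 lists and 22 others hold positions as deposited. The fold, a ratio of ligand to vehicle, of 3 accessibility lists is the authors' own. Members, gene lists and comparisons were chosen with earlier results of these data known. Overlap was 1 base or more. A gene was counted when a site's centre lay in it or within 10 kb (RefSeq, GRCm38.p6). Relative place is entry number over list length. Named were the first 10 sites by mean relative place, up to 4 genes per list by number of sites and then place, every SREBP regulator and nuclear receptor with a site, the 10 genes with most sites, Srebf1 and Cyp7a1; further genes named beside them, among them those without a vehicle peak, were chosen after their values were seen. Each class has 1 list per group, so no test was run and Wilson 95% intervals cover counting of sites only. Simulated lists with planted classes were sorted without error. RNA-seq was not analysed here, and some genes that the rule names are not reported here. Sequences of all sites were not used here, only promoter windows. Work was done in python 3.11.15 with pandas 2.3.3 and numpy 2.4.6, and figures in matplotlib 3.10.9.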

Additional observations from a re-analysis of the deposited data

How the results depend on the processing

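Of 74 values under other settings, 52 stayed within their interval or 1.5 times their count, and 22 moved. Shares set against all GW3965 peaks changed side in some: FXR from below 2.59% to 3.29% (first 10000 entries) and 5.03% (early sites), accessibility with GW3965 from below 25% to 25.7% and 30.8%, and with T09 from below 6.05% to 6.43% and 8.18%. With GW4064 it rose above 9.11% for early sites (11.3%) and, with the LXR vehicle alone, to 9.16%. The background stayed that of all GW3965 peaks, so the settings cut to early entries set sites beside peaks of unlike place. No background of like place was computed for them. Asking for an overlap of 50 bases moved the share of genes with a site to 11.2%, and no vehicle peak within 500 bases moved the share near a vehicle peak (within 10 kb) to 25.7%. With the LXR experiment's vehicle alone as the absent list, genes came to 14.7%, sites within 10 kb of a vehicle peak to 46.0% and sites on LXR peaks with T09 to 0.312%. With the GW4064 vehicle alone they came to 13.9% and 41.7% for the first 2. Distance was measured to both vehicle lists throughout, so every site let in by either setting overlaps a vehicle peak. The shares of 46.0% and 41.7% near a vehicle peak thus rose by construction, and added sites can only add genes. Likewise, the setting of 500 bases took out only sites near a vehicle peak, so that share had to fall. Limited to the first 10000 entries of each list, 1275 sites remained, with 4.73% of genes, 29.6% near a vehicle peak, 3.29% on FXR peaks and 0% on LXR peaks with T09. Gene limits of 5 and 50 kb gave 9.88% and 24.3% of genes. The early sites, an alternative chosen after seeing the data, numbered 159, with 30.8%, 8.18% and 11.3% in accessibility gained with GW3965, T09 and GW4064, 5.03% on FXR peaks, 0% on LXR peaks with T09, 0.658% of genes and 32.1% near a vehicle peak. Fewer sites enter under the last settings. For the other moves that the rule did not fix, the cause was not tested. The comparison within bins 3 to 5 of the GW3965 list was also chosen after seeing the data. Leaving out the 4 sites in 102 regions listed for all 4 antibodies took the LXR share with T09 from 0.132% to 0.0790%, and left every value within its interval. No paired analysis was possible because each group has 1 list, whose columns carry no replicate numbers, and no result comes from a test; leaving out a replicate was not run for the same reason.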
